A study of Mus musculus with 6 samples.

Results

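The genes of the BCL2 family that set whether a cell lives or dies were examined in mouse megakaryocytes with and without a Gata-1 knock down. The 10 genes followed were Bcl2, Bcl2l1, Mcl1, Bax, Bak1, Bcl2l11, Bid, Bad, Bbc3 and Pmaip1, and every probe set whose platform annotation names only 1 of them was taken. This gave 29 of the 45101 probe sets on the array, for 9 of the 10 genes, among 18193 genes named by probe sets of their own. Bax had no probe set that the annotation used here names, so no value is given for it.

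Proteins of this family meet on the outer membrane of the mitochondrion. Pro-survival members (BCL2, BCL-XL from Bcl2l1, and MCL1) hold the pore-forming effectors BAX and BAK in check, and the BH3-only proteins (BIM from Bcl2l11, BID, BAD, PUMA from Bbc3 and NOXA from Pmaip1) tip the balance toward pore formation, release of cytochrome c and caspase activation. In the megakaryocyte lineage BCL-XL is known for keeping platelets alive, and BAK for being the main effector that it restrains there. GATA1, a zinc finger transcription factor needed for megakaryocyte and red cell maturation, is known from erythroid cells to raise Bcl2l1 transcription.

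Progenitors from fetal livers of embryonic day 13.5 had been grown into megakaryocytes, collected on an albumin gradient, and profiled as total RNA on 6 Affymetrix arrays. The 2 groups were 3 samples labelled Gata-1 Knock Down and 3 labelled Gata-1 Wild Type, each lettered A, B and C. The labels give no allele, strain or means of the knockdown, and leave unsaid whether the samples of a group are separate cultures or animals. The p-values therefore speak only of how far these samples scatter, which could be technical scatter. The number of arrays limits the precision.

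Gata1 read 143.3 to 194.7 in knockdown and 8246.5 to 8723.7 in wild type, a log2 fold change of -5.52 ± 0.12 (SE; limma adjusted p 2.89e-09). The megakaryocyte genes Pf4 and Itga2b were bright in both groups, with mean deposited signals of 19982 and 22763 in knockdown and 17120 and 18477 in wild type. They were the 2 of 13 tested megakaryocyte markers that did not pass, and the other 11 fell, Tubb1, a platelet tubulin, to 16.5% and Vwf, von Willebrand factor, to 34.8% of the wild-type signal. Median signals of the arrays were 101.6 to 104.4 in wild type and 111.3 to 137.8 in knockdown. Knockdown B had the highest median and the brightest bacterial controls, which reached 132 there and 60.7 to 82.2 elsewhere, and those controls are taken here as background. Fold changes below are knockdown minus wild type on quantile normalized log2(signal + 32), which understates the change of dim genes, and a gene is said to fall or rise where its limma p, adjusted over all 31526 tested probe sets, is below 0.05. Of all tested probe sets, 30.4% passed, 16.1% as rises and 14.3% as falls. Rises made up 52.9% of these calls, and 32.9% when arrays were centred on their medians instead.

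Upstream sequence was inspected because the comparison turns on a factor that binds GATA motifs. The windows held the 250 bases before each annotated start, from RefSeq on GRCm38.p6, and were searched on both strands for the letters AGATAA, for the letters AGATAG, for the letters TGATAA and for the letters TGATAG. RefSeq windows were found for 9 of the 10 genes, and Pmaip1, which also fell, had none and was not searched. Of the 15 windows, 2 held a match, against 26.5% of the 32851 windows of all genes. The 2 windows with a match are shown here because both belong to genes that fell. The Bcl2l1 window lies at chr2:152828490-152828739 on the minus strand and is 1 of 3 annotated for that gene. The Bid window lies at chr6:120916825-120917074 on the minus strand. Both are written in the direction of the gene, with the match in capitals, and in Bid the capitals are the reverse complement of TGATAG.
Bcl2l1: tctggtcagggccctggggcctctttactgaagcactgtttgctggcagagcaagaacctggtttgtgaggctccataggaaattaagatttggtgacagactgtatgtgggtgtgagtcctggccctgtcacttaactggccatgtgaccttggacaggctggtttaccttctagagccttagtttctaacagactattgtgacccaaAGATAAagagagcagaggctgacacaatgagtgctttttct
Bid: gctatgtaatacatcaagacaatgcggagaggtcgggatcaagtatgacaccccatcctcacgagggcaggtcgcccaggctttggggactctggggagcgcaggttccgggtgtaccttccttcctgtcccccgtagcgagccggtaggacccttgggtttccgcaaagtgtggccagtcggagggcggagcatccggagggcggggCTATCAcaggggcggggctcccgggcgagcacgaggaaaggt
The first base of the match lay 41 bases before the start in Bcl2l1 and 42 in Bid. A match is a description of letters and not evidence of binding, and the other windows, including those of Bak1 and Bcl2l11, lacked these letters.

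Taken by its brightest probe set, each of 5 genes fell in knockdown and the other 4 did not pass. Those that fell were the survival gene Bcl2l1, the effector gene Bak1 and the BH3-only genes Bcl2l11, Bid and Pmaip1. Among all 14230 genes tested, 35.5% passed, 18.3% as rises and 17.1% as falls. The median log2 fold change was -0.40 over the 9 genes and 0.03 over all genes tested. All but 1 of the 29 probe sets passed the filter on dim signals. Of these 28, 14 fell, 2 rose and 12 did not pass, against 14.3% falls and 16.1% rises among all tested probe sets. Deposited signals of the groups did not overlap for 15 of these 28, 13 with lower and 2 with higher knockdown signals, while 46% of all tested probe sets showed no overlap in one direction or the other, so this count lies near the background.

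**Figure D1:**
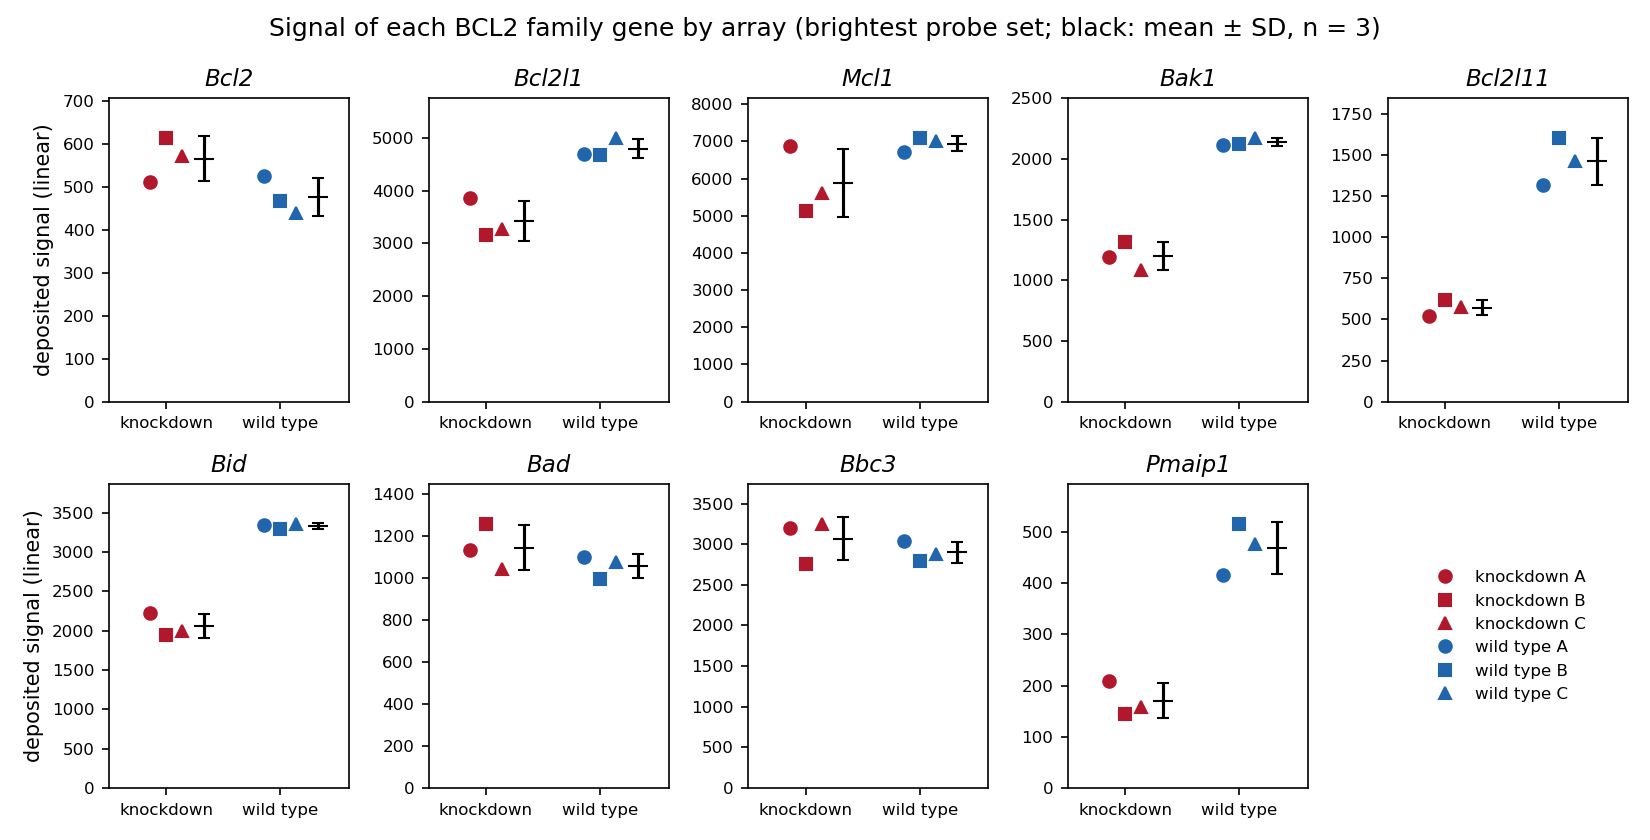
Deposited signal on a linear axis from 0 for the brightest probe set of each of the 9 genes, 1 point per array (red, knockdown; blue, wild type; shapes mark letters A, B and C), with mean ± SD in black (n = 3). Signals of Bcl2l1, Bak1, Bcl2l11, Bid and Pmaip1 are separated, with the knockdown points below the wild-type points, while those of Bcl2, Mcl1, Bad and Bbc3 overlap between the groups.

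Among the pro-survival genes, Bcl2l1 fell. Its brightest probe set, 1420888_at, read 3858.2, 3154.6 and 3266.8 in knockdown A, B and C and 4694.0, 4681.5 and 5002.1 in wild type A, B and C. Each knockdown array lay below each wild-type array, with means of 3427 ± 378 and 4793 ± 182 (SD, n = 3), or 71.5% of wild type. The log2 fold change was -0.40 ± 0.07 (SE; limma adjusted p 0.00168). A second probe set, 1420887_a_at, read 738.4, 765.7 and 901.6 in knockdown and 1447.5, 1431.7 and 1482.4 in wild type, and changed by -0.87 ± 0.09 (adjusted p 5.69e-05). The 95% intervals of these changes, -0.56 to -0.24 and -1.07 to -0.66, did not overlap, and the difference between these sets was not tested. In Affymetrix naming, the suffix _a_at marks a set that may read several transcripts of a gene, _s_at and _x_at sets whose probes may also match other sequences. The dimmer set 1426191_a_at, read 275.9 to 344.8 in knockdown and 360.2 to 463.9 in wild type, with a change of -0.42 ± 0.14 and an adjusted p of 0.0463 that rose to 0.144 without knockdown C and to 0.0564, 0.102 and 0.203 without wild type A, B and C. The call of 1426191_a_at was also lost with values as deposited, no filter, no intensity trend and a floor at background (adjusted p 0.118, 0.0699, 0.0733 and 0.0725). The fourth, 1426050_at, was no brighter than background on 2 of 3 arrays of each group and did not pass.

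Mcl1, a short-lived survival protein gene, had no common direction over its 6 probe sets. The brightest, 1448503_at, read 6885.0, 5139.8 and 5616.6 in knockdown A, B and C and 6708.0, 7100.9 and 6999.9 in wild type. Knockdown A overlapped the wild-type arrays and the other knockdown arrays lay below them. The log2 fold change was -0.16 ± 0.09 (limma adjusted p 0.246), and without knockdown A it was -0.28 with an adjusted p of 0.00188. The set 1416881_at, at 3232.2, 3226.4 and 3046.0 in knockdown and 3765.6, 4074.1 and 4297.9 in wild type, fell by 0.28 on the log2 scale (adjusted p 0.00742), a call lost without an intensity trend (adjusted p 0.0763). The sets 1437527_x_at and 1456243_x_at had small rises of 0.16 ± 0.05 and 0.23 ± 0.05 (adjusted p 0.0237 and 0.00759), with calls that were also lost without a trend (adjusted p 0.193 and 0.094), and values of -0.13 and -0.05 that did not pass with arrays centred on their medians. The former also lost its call without knockdown C, and without any 1 wild-type array (adjusted p 0.0681 to 0.101), while the latter kept it. Set 1416880_at was at -0.00 ± 0.08, with groups that overlapped, and 1456381_x_at at -0.07 ± 0.08, which passed at -0.15 without knockdown A (adjusted p 0.0498). The mean of all Mcl1 probe sets changed by -0.02 ± 0.05 (limma adjusted p 0.808).

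Bcl2, the founding survival gene of the family, did not pass on any of its 4 tested probe sets. The brightest, 1457687_at, read 509.8, 613.8 and 570.5 in knockdown and 525.3, 465.6 and 439.3 in wild type. The groups overlapped through knockdown A and wild type A. Its log2 fold change was 0.16 ± 0.12 with a 95% interval of -0.10 to 0.41 (limma adjusted p 0.37). Sets 1422938_at and 1437122_at gave 0.16 ± 0.19 and 0.14 ± 0.16, and 1443837_x_at gave -0.15 ± 0.27. The fifth set, 1440770_at, did not pass the filter and lay within background on all 6 arrays, with a highest signal of 72.7.

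Of the 2 effector genes followed, Bax and Bak1, Bak1 had values here, and it fell. The probe set 1418991_at read 1192.8, 1316.2 and 1088.4 in knockdown and 2117.3, 2119.7 and 2175.9 in wild type. The groups were well apart, with a knockdown mean of 1199 ± 114 against 2138 ± 33.2 (SD, n = 3), or 56.1% of wild type. The log2 fold change was -0.81 ± 0.08 (limma adjusted p 4.9e-05). The dimmer 1425716_s_at read 149.5, 40.3 and 149.8 in knockdown and 144.9, 125.6 and 187.6 in wild type. Knockdown B was below background there and the groups overlapped, with a change of -0.62 ± 0.37 and a 95% interval of -1.45 to 0.21.

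Of the 5 BH3-only genes followed, 3 fell and 2 did not pass. Of their 12 probe sets, all tested, 9 fell and 3 did not pass, while 14.3% of all tested probe sets fell. Of those that fell, 5 belonged to Bcl2l11 and 3 to Bid, so the count rests mostly on these genes. The median log2 fold change was -0.65 against 0.04 over all tested probe sets.

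Bcl2l11, which encodes the broad BH3-only killer BIM, fell on all 5 of its probe sets. The brightest, 1456005_a_at, read 522.8, 618.3 and 575.3 in knockdown and 1319.0, 1605.3 and 1460.9 in wild type. Means were 572 ± 47.8 and 1462 ± 143 (SD, n = 3), or 39.1% of wild type, with wide separation of the groups. The log2 fold change was -1.34 ± 0.10 (limma adjusted p 6.13e-06). Sets 1435448_at and 1435449_at changed by -1.07 ± 0.10 and -1.34 ± 0.19. The former read 419.7, 430.7 and 493.8 in knockdown against 917.3, 962.1 and 909.6 in wild type. Set 1426334_a_at, with knockdown B below background, changed by -0.82 ± 0.19. Set 1456006_at overlapped between groups, at 195.5 to 300.1 in knockdown and 297.3 to 401.1 in wild type, with a change of -0.56 ± 0.16 (adjusted p 0.0262). It did not pass without knockdown A or C or without wild type B or C (adjusted p 0.0585, 0.0647, 0.12 and 0.0765). With values as deposited and without an intensity trend it did not pass either (adjusted p 0.0735 and 0.0543).

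Pmaip1, the gene of NOXA, a BH3-only protein that binds MCL1, had the largest fitted fall of the family. Its 1 probe set read 208.4, 143.7 and 158.1 in knockdown and 414.9, 515.7 and 475.4 in wild type. All knockdown signals stood above the bacterial controls and below all wild-type signals. Means were 170 ± 34.0 and 469 ± 50.7 (SD, n = 3), and the log2 fold change was -1.47 ± 0.18 (limma adjusted p 0.000142). Its 95% interval of -1.87 to -1.07 overlapped that of the brightest Bcl2l11 set, -1.57 to -1.11, so their order is not resolved.

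Bid, whose product links death receptors to mitochondria once caspase-8 cuts it, fell on all 3 probe sets. The brightest, 1417045_at, read 2229.7, 1945.6 and 2003.3 in knockdown and 3345.8, 3295.8 and 3360.7 in wild type. Wild-type arrays lay close together and each was above every knockdown array, with means of 2060 ± 150 and 3334 ± 34.0 (SD, n = 3), or 61.8% of wild type. The log2 fold change was -0.63 ± 0.06 (limma adjusted p 3.18e-05), and that of 1448560_at was -0.67 ± 0.08. The third set, 1447873_x_at, changed by -0.47 ± 0.15 with an adjusted p of 0.0402. Its call was lost without knockdown B or C, with adjusted p of 0.0779 and 0.105. It was also lost without wild type A, B or C, with adjusted p of 0.072, 0.104 and 0.163. Values as deposited, no filter and a floor at background lost it too, with adjusted p of 0.129, 0.0704 and 0.0643.

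Bad and Bbc3 did not pass. Bad, whose product is held inactive by survival signals, read 1131.3, 1255.7 and 1040.7 in knockdown and 1098.7, 993.3 and 1074.0 in wild type on its brighter set, with overlapping groups. The 95% interval of its log2 fold change of 0.10 ± 0.09 ran from -0.11 to 0.30, and the other set gave -0.08 ± 0.12. Bbc3, the gene of the p53-inducible killer PUMA, read 3194.0, 2760.1 and 3249.8 in knockdown and 3043.6, 2790.3 and 2875.1 in wild type. Knockdown B was the lowest of the 6 arrays and the other knockdown arrays were the highest. The change was 0.14 ± 0.07 with a 95% interval of -0.01 to 0.29 (limma adjusted p 0.155). Without knockdown B it was 0.20 and passed (adjusted p 0.0367).

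**Figure D2:**
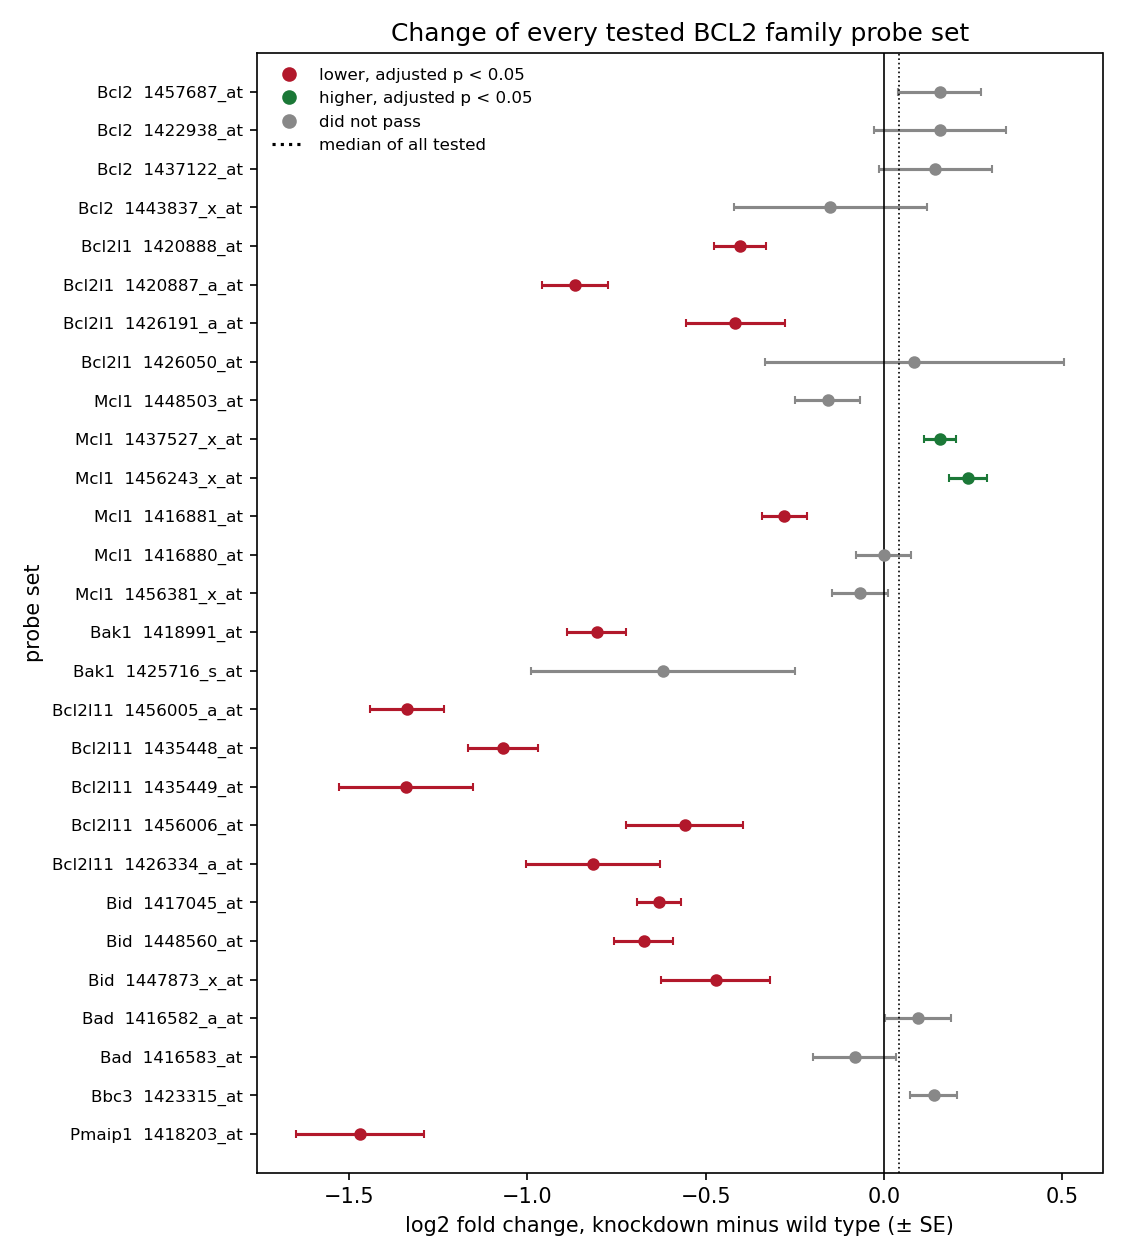
Log2 fold change, knockdown minus wild type, with its SE for the 28 tested probe sets, coloured by call, with a dotted line at the median of all tested probe sets (0.04). All tested sets of Bcl2l11, Bid and Pmaip1 lie to the left as falls, the sets of Mcl1 fall on both sides, and those of Bcl2, Bad and Bbc3 did not pass.

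The scaling of the arrays mattered for small changes. The median log2 fold change of all tested probe sets was 0.04 after quantile normalization, 0.15 with values as deposited and -0.05 with arrays centred on their medians. The falls of Bcl2l1, Bak1, Bcl2l11, Bid and Pmaip1 on their brightest probe sets passed under all 3. Relative to the median of all tested probe sets, they were -0.45, -0.85, -1.38, -0.67 and -1.51 with quantile normalization, and -0.64, -0.97, -1.46, -0.84 and -1.47 with values as deposited. For 1456243_x_at of Mcl1, the value relative to that median was 0.19 with quantile normalization and 0 with values as deposited.

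**Figure D3:**
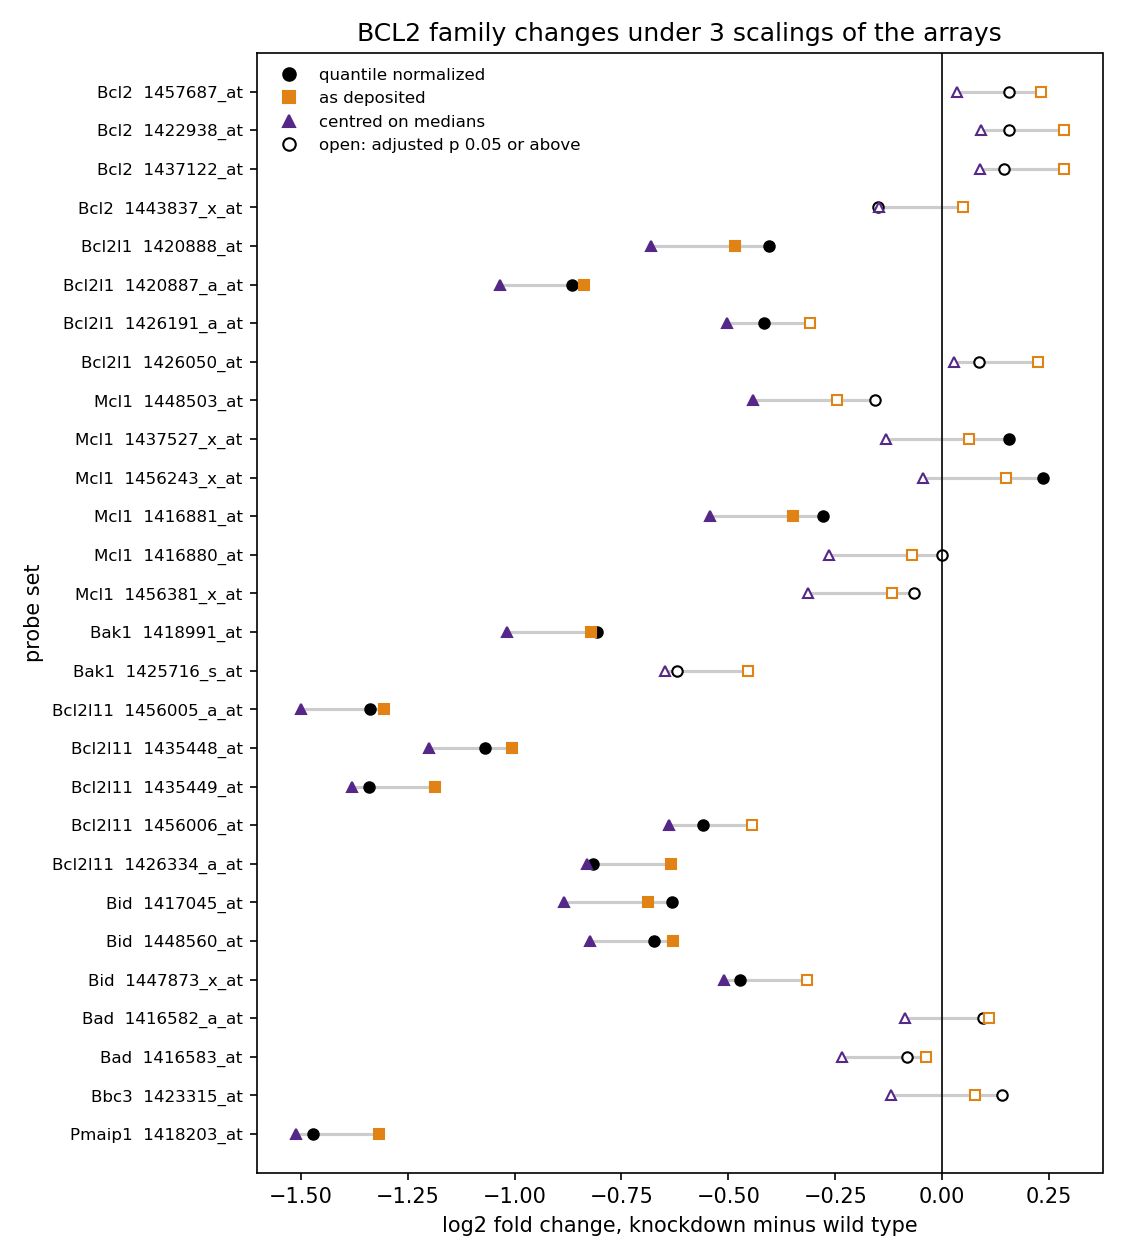
Log2 fold change, knockdown minus wild type, of the 28 tested probe sets under quantile normalization (circles), values as deposited (squares) and arrays centred on their medians (triangles), with open symbols where the adjusted p was 0.05 or above. The 5 genes that fell stay left of 0 on their brightest sets under all 3 scalings, while the 2 Mcl1 sets that rose are filled only under quantile normalization.

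A constant scaling factor of an array cancels, apart from the offset, in a difference between genes on it. For each array the log2(signal + 32) of a survival gene was subtracted from that of a cell death gene, and the difference was compared between groups. A comparison chosen after the values were seen covered 24 pairs, 6 cell death genes against the brightest sets of Bcl2, Mcl1 and Bcl2l1 and the second set of Bcl2l1. With 3 arrays against 3, the smallest exact two-sided permutation p is 0.1, or 0.126 adjusted over the 24 pairs, so none can pass a threshold of 0.05.

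The difference of Bcl2l11 from Bcl2l1 was lower on every knockdown array than on the wild-type arrays for both Bcl2l1 sets. Against 1420888_at, the shift was -0.82 ± 0.18 (SE; exact permutation p 0.1). Against 1420887_a_at, the shift was -0.47 ± 0.13 (exact permutation p 0.1). Pmaip1 shifted by -0.83 ± 0.10 against the first set (exact permutation p 0.1) and by -0.48 ± 0.21 against the second (exact permutation p 0.2). For Bid and Bak1 the answer turned on the Bcl2l1 set. Bid shifted by -0.20 ± 0.04 against the first and 0.15 ± 0.13 against the second, and Bak1 by -0.34 ± 0.13 and 0.02 ± 0.15 (exact permutation p 0.1 and 0.4 for Bid, 0.1 and 1 for Bak1). The shifts of Bad and Bbc3 against Bcl2l1 were upward, 0.59 ± 0.14 and 0.56 ± 0.09 against the first set and 0.95 ± 0.15 and 0.91 ± 0.09 against the second (exact permutation p 0.1 for each). Against the brightest Mcl1 set the shifts were -1.06 ± 0.20 for Bcl2l11, -1.07 ± 0.06 for Pmaip1, -0.44 ± 0.07 for Bid, -0.57 ± 0.17 for Bak1, 0.36 ± 0.18 for Bad and 0.32 ± 0.11 for Bbc3 (exact permutation p 0.1 for each). Against the brightest Bcl2 set all 6 shifts were below 0. They were -1.53 ± 0.14 for Bcl2l11, -1.55 ± 0.26 for Pmaip1, -0.92 ± 0.15 for Bid and -1.05 ± 0.12 for Bak1 (exact permutation p 0.1 for each), and -0.12 ± 0.10 for Bad and -0.15 ± 0.15 for Bbc3 (exact permutation p 0.4 for each). For Bad and Bbc3 the upward shift against Bcl2l1 and Mcl1 was thus not seen against Bcl2, where the sign is not resolved.

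**Figure D4:**
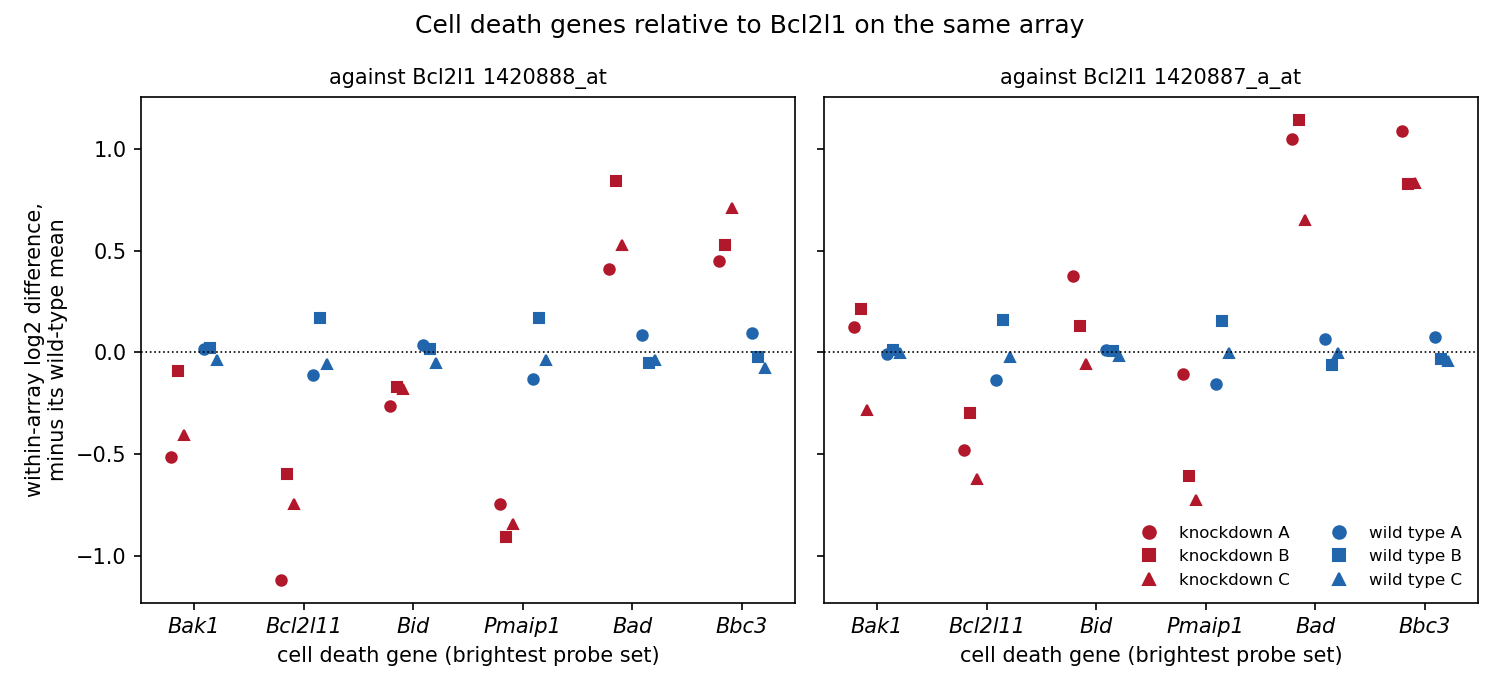
Log2(signal + 32) of 6 cell death genes minus that of Bcl2l1 on the same array, shown relative to the wild-type mean of that difference, for both brighter Bcl2l1 probe sets (left, 1420888_at; right, 1420887_a_at), 1 point per array. Bcl2l11 lies lower in knockdown in both panels and Bad and Bbc3 lie higher, while Bid and Bak1 lie lower in the left panel only.

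The genes whose pattern over the 6 arrays was most like that of the brightest Bcl2l1 set were Scrn1, Myh10, Cd69, Mbd2 and Bex4, with Pearson's r of 0.9991, 0.9987, 0.9972, 0.9967 and 0.9960. Among tested genes other than the members and predicted genes these correlations were the highest, are set in large part by the difference between the groups, and carry no test. In each of these 5 genes, as in that Bcl2l1 set, knockdown A read highest among the knockdown arrays. The choice by correlation favours such a shared order, so it is no separate result. In the second Bcl2l1 set, 1420887_a_at, knockdown A read lowest, at 738.4 against 765.7 and 901.6 in knockdown B and C. Cd69, a lymphocyte and platelet activation antigen, read 1893.2, 1271.9 and 1257.8 in knockdown and 2604.0, 2761.9 and 2993.5 in wild type. Mbd2, a reader of methylated DNA, read 2203.8, 1846.6 and 1914.9 in knockdown and 2645.8, 2682.1 and 2746.5 in wild type. Myh10, a nonmuscle myosin heavy chain, lay within background in knockdown.

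Other genes of the family moved in both directions. Of 17 further BCL2 family genes, 11 were tested, of which 4 rose, 2 fell and 5 did not pass, with a median log2 fold change of 0.03. Among all genes tested, 18.3% rose and 17.1% fell, and the median was also 0.03. Bnip3, a hypoxia-inducible mitophagy receptor, had wild-type signals of 1034 ± 21.5 and knockdown signals of 2766 ± 81.2 (SD, n = 3) and rose by 1.42 ± 0.07 (SE) on the log2 scale. Bmf, a BH3-only gene, rose by 0.80 ± 0.12, from 306 ± 22.3 to 600 ± 70.4, on 1 of its 2 tested probe sets. Bcl2l15, which in wild type did not exceed background, was higher in knockdown by at least 2.75-fold. Bcl2l12 changed by -0.66 ± 0.22, a call that rested on 1 of 2 probe sets and was lost under 10 of 16 alternatives. Among these were values as deposited, no filter, no intensity trend, array weights and leaving out knockdown B or any 1 wild-type array. The BH3-only gene Bik, at 0.58 ± 0.18, lost its call without knockdown A or C or wild type B or C, with no filter and with the replicate block, and Bcl2l13, at -0.63 ± 0.11, kept it under all 16 alternatives. Each of these calls rested on 1 of 2 probe sets, and the genes were picked with their values in view. Bok, an effector-like gene also named after its values were seen, was at -0.56 ± 0.42 (limma adjusted p 0.375), with 1 knockdown array within background. The rises of Bmf and Bnip3 passed under all 16 alternatives tried, as did that of Bcl2l15 under the 15 that tested it.

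Further lists covered steps around the mitochondrion, and the share called in each is to be read against the 35.5% of all genes. Of 11 tested genes of the apoptosome and its caspases, Casp2, the caspase of the PIDDosome, rose by 1.13 ± 0.09, Casp6, an effector caspase, fell by 0.39 on the log2 scale and 9 did not pass, with a median of -0.05. Apaf1, the scaffold of the apoptosome, and Cycs, cytochrome c, were at -0.25 ± 0.10 and -0.14 ± 0.12 (limma adjusted p 0.0924 and 0.402), both named after their values were seen, and without knockdown A 4 genes of this list fell. Of 9 inhibitor of apoptosis genes, 2 fell and 7 did not pass (median -0.08). Birc3 changed by -0.86 ± 0.09 on 1 of 2 probe sets, and Birc7 by -0.61 ± 0.20, a call lost without knockdown B or C or any 1 wild-type array. Without knockdown A, 4 genes of that list fell, and without any 1 of the other arrays 1 did. Of 10 death receptor genes, 3 rose and 7 did not pass (median -0.08). They were the TNF receptor Tnfrsf1a, by 0.61 ± 0.09, the caspase-8 brake Cflar, by 0.37 ± 0.08 on 2 of 5 probe sets, and Casp8, by 0.36 ± 0.06. The calls of Cflar and Casp8 were lost with arrays centred on their medians.

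Genes of the p53 response were split. The 15 tested genes held 6 rises and 3 falls, with 6 that did not pass (median 0.19). The rise of Ei24, 0.19 ± 0.06, lost its call under 8 of 16 alternatives and was at -0.06 with arrays centred on their medians. Perp, a p53 target of the plasma membrane, rose from 297 ± 17.2 to 1109 ± 147 (SD, n = 3), a change of 1.72 ± 0.11 (SE), the apoptosis nuclease Aen by 0.90 ± 0.09 and the cell cycle inhibitor Cdkn1a by 0.88 ± 0.05. The stress sensor Gadd45a changed by -1.58 ± 0.10, from 3214 ± 100.4 to 1050 ± 170. Of the BCL2 family members above, Bbc3, Pmaip1 and Bax are known p53 targets. The values of Bbc3 and Pmaip1 are those already given, and Bax had no value here.

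Regulators of BCL2 proteins also went both ways. The 24 tested genes held 6 rises and 8 falls, with 10 that did not pass (median -0.13). With arrays centred on their medians, 2 rose and 13 fell. Over all tested probe sets, centring likewise took rises from 5062 to 2609 and falls from 4515 to 5333. The calcium channel of the endoplasmic reticulum Itpr2 changed by -0.87 ± 0.15, on 2 of 5 probe sets, and Jak2, the kinase of the thrombopoietin receptor, by -0.86 ± 0.08. The chaperone partner Bag3 changed by -0.84 ± 0.10. Pim2, a kinase that phosphorylates BAD, rose by 0.81 ± 0.06. Pim1, of the same list and named after its values were seen, changed by -0.67 ± 0.06, on 2 of 2 probe sets.

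**Figure D5:**
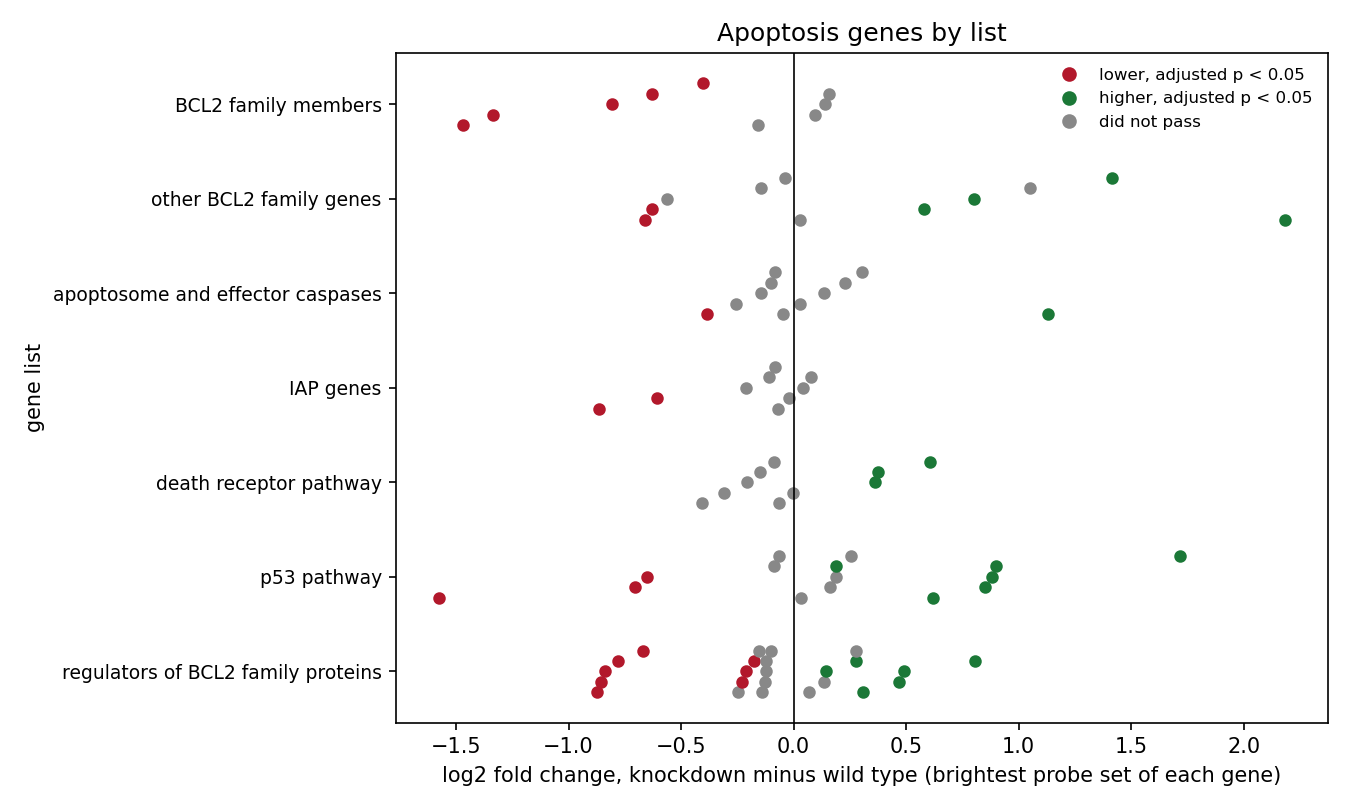
Log2 fold change, knockdown minus wild type, of the brightest probe set of each tested gene, 1 point per gene, in 7 lists of apoptosis genes, coloured by call; the height within a list only spreads the points. The BCL2 family members hold 5 falls, while the p53 pathway, the regulators and the other family genes hold calls on both sides; the farthest right point, Bcl2l15, lay within background in wild type.

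Markers of some other cell types fell along with these genes. The counts are to be read against the 17.1% of all genes tested that fell and the 18.3% that rose. Of 14 tested macrophage markers, 13 fell, and the signal summed over all 16 listed genes on the array was 8454 to 8510 in knockdown and 22258 to 22897 in wild type. Csf1r, the receptor for macrophage colony-stimulating factor, went from 6939 ± 115 to 2476 ± 82.9 and Adgre1, the F4/80 antigen, from 2311 ± 161 to 828 ± 48.0 (SD, n = 3). Of 14 tested neutrophil and monocyte markers, 10 fell, S100a8 and S100a9 among them, with sums of 13444 to 15093 and 24305 to 25943. Of 13 mast cell and basophil markers, 8 fell and 2 rose, with sums of 8991 to 9960 and 7394 to 8165. Those that rose were Gata2, a factor also found in early megakaryocyte progenitors, from 2480 ± 75.9 to 7143 ± 457, and Kit, the stem cell factor receptor, from 365 ± 37.0 to 716 ± 56.4 (SD, n = 3). Without Gata2, a sum taken after the values were seen, the other 12 markers summed to 1992 to 2332 in knockdown and 4955 to 5731 in wild type. Mcpt1 lay within background on 3 and Mcpt2 on 2 of the 3 knockdown arrays. Of 10 erythroid markers, 4 fell, 1 rose and 5 did not pass, with sums of 8567 to 8805 and 22484 to 22940. Large in these sums, and named with values in view, were Hbb-y, with means of 9747.5 in wild type and 1125.5 in knockdown, and Tfrc, with 6766 and 4514. Epor fell from 3990 to 757, Tfrc fell on 1 of 3 probe sets, and Slc4a1 rose. Hba-a1 did not pass and read 67.2 to 128.2, near background. Of 13 megakaryocyte markers, 11 fell, with sums of 119956 to 145922 and 175619 to 188174. Of 8 lymphoid markers 1 fell, with sums of 1783 to 2654 and 2767 to 3023, and of 6 hepatocyte markers 2, with sums of 1003 to 1066 and 1493 to 1708. None of these markers was at 0. In bulk samples such as these, fewer cells of a type and less RNA per cell cannot be told apart, and the part of these markers in the falls of Bcl2l1, Bak1, Bcl2l11, Bid and Pmaip1 was not tested.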

How the data were processed

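The authors deposited 1 table of intensity values per probe set, linear as judged from their range, with 1 column per sample. The 2% trimmed mean of each column was 500, so a common scaling had been applied. The software that made them is not given in the sources used here. Groups and replicate letters come from the sample titles. The members and gene lists were chosen with earlier results of these data known.

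Signals were used as log2(signal + 32) and quantile normalized, since array medians on that scale spanned 0.346. The 64 control probe sets and those below the 30th percentile of mean log2 value were left out. Groups were compared with limma (version 3.58.1, R 4.3.3; lmFit, eBayes with an intensity trend), two-sided, with Benjamini-Hochberg adjustment over the 31526 probe sets left. Probe sets were named by a platform annotation, updated through gene numbers with a GRCm38.p6 table. A gene was represented by its brightest probe set. Background was the highest of 27 unspiked bacterial controls on an array. A bound was taken from normalized signals, offset removed.

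Genes named besides the members are the called genes with the largest changes of each apoptosis list, up to 4 and the largest in each direction, the 5 most correlated with Bcl2l1 among genes other than members and predicted genes, and a few defining markers. The fit reported did not pair samples by replicate letter. Deviations of same-lettered samples correlated at -0.042, -0.017 and -0.01, so no shared deviation was seen. The labels do not say whether same-lettered samples were prepared together. Alternatives tried were other offsets, scalings and filters, no trend, array weights, a floor at background, gene means, a replicate block and leaving out each array.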

Additional observations from a re-analysis of the deposited data

How the results depend on the processing

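The falls of Bcl2l1, Bak1, Bcl2l11, Bid and Pmaip1 on their brightest probe sets kept their direction and passed under all 16 alternatives, with log2 fold changes of -0.68 to -0.36, -1.02 to -0.74, -1.50 to -1.24, -0.88 to -0.61 and -1.65 to -1.19. The count of member probe sets that rose, 2 by the fit reported, was 0 with values as deposited, 0 with arrays centred on their medians, 0 without an intensity trend and 1 to 3 when 1 array was left out. With limma and array centring, the Mcl1 sets 1437527_x_at and 1456243_x_at turned to -0.132 and -0.046. Relative to the deposited values, centring shifts all probe sets of an array alike by construction. Relative to quantile normalization, the shift differed between probe sets, with Pmaip1 going from -1.47 to -1.512. The count of member probe sets that fell was 11 to 15, and that of member genes called 5 to 7, against 14 and 5. With array weights Mcl1 and Bbc3 passed too. With the replicate block 1 member probe set rose and 12 fell, and the 1426191_a_at set of Bcl2l1 (adjusted p 0.0865), 1437527_x_at of Mcl1 (0.0872) and 1447873_x_at of Bid (0.0729) lost their calls. Genes called over the 6 apoptosis lists other than the members numbered 29 to 47, against 36. Calls over all probe sets moved with the settings too, from 7383 without wild type C to 11559 with array weights, against 9577. In the fit reported, 35.5% of all genes tested passed. Probe sets near background, such as 1440770_at of Bcl2 and 1426050_at of Bcl2l1, cannot show a change.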
